A study of Mus musculus with 12 samples.

Results

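Interferon-stimulated genes are the genes that a cell switches on when interferon binds its receptors. The 47 members described here were taken by gene name from a list and looked up in the deposited tables, and 47 of them were among the 17811 genes of the dim tdT and 46 among the 17521 genes of the bright tdT table. Oas3 was the member not listed in the bright tdT table. They were measured by RNA-seq in glomerular endothelial cells (GEC), the endothelium of the kidney's filtering capillary tufts, sorted from wild type (WT) mice and from Col4a5 -/- mice, which lack a chain of the collagen of the glomerular basement membrane and serve as a model of Alport syndrome (AS). All mice were C57BL/6, 4 months old and sex-matched across genotypes, and all carried the TekCre tdTomato reporter, in which Cre driven by the promoter of Tek, a receptor kinase of endothelial cells, turns on the red fluorescent protein tdTomato. Tek-driven Cre lines are known to mark blood cells as well as endothelium. Glomeruli were sieved from renal cortex and digested, and the tdTomato-positive cells of each of 3 WT and 3 AS mice were sorted into a dim tdT and a bright tdT subpopulation, which gave 12 libraries in 4 groups of 3. The dim and the bright library of a mouse share its number in the sample labels, so that replicate 3 of AS dim and of AS bright, for instance, are the same animal.

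Type I interferons signal through the receptor subunits IFNAR1 and IFNAR2 and the kinases JAK1 and TYK2 to a transcription factor complex that holds STAT2 and IRF9 and binds the interferon-stimulated response element (ISRE) in the promoters of its targets. Type II interferon signals through IFNGR1 and IFNGR2, JAK1 and JAK2, and its targets are known for gamma-activated sites (GAS) in their promoters. The products recognize, modify or destroy foreign nucleic acid, block the entry or release of viruses, attack the vacuoles of intracellular microbes, or feed back on the pathway, and endothelial cells and leukocytes both respond to interferon.

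The promoter letters that the pathway's transcription factors read are shown first for the members that stood higher in bright than in dim GEC of both genotypes and hold an ISRE match, then for neighbouring and further GTPase genes, so that the shared element can be seen beside the values that follow. RefSeq promoters of build GRCm38.p6 (250 bases before to 50 after a transcription start) were at hand for 36 of the 47 members. Usp18, Oas2, Mx1, Mx2, Dhx58, Zbp1, Iigp1, Parp9, Parp14, Rtp4 and Ifi27l2a were the other members. Each stretch reads 5′ to 3′ in the direction of transcription, ends before the start of the transcript, and has in capitals each ISRE match, that is GAAA, 2 bases of any kind and GAAA again, or the reverse complement.
Ifit1 promoter, chr19:34640773-34640825, plus strand: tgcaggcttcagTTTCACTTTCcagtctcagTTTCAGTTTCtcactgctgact
Ifit3 promoter, chr19:34583361-34583428, plus strand: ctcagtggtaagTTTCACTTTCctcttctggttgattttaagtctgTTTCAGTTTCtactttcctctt
Ifit3b promoter, chr19:34607757-34607824, plus strand: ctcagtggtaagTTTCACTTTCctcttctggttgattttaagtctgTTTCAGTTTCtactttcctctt
Isg15 promoter, chr4:156200863-156200908, minus strand: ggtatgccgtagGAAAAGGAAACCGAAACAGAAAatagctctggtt
Rsad2 promoter, chr12:26456551-26456584, minus strand: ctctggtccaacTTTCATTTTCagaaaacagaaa
Irgm1 promoter, chr11:48871423-48871462, minus strand: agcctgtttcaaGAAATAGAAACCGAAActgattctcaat
Igtp promoter, chr11:58199510-58199543, plus strand: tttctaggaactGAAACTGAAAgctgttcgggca
Irgm2 promoter, chr11:58214901-58214934, plus strand: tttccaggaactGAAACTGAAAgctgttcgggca
Gbp2 promoter, chr3:142620592-142620625, plus strand: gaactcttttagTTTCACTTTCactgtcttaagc

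Isg15 held 3 overlapping matches, and Ifit1, Ifit3, Ifit3b and Irgm1 held 2 each. The stretches of Ifit3 and Ifit3b, which lie next to each other on chromosome 19, were the same at 68 of 68 bases, and those of the chromosome 11 neighbours Igtp and Irgm2 at 33 of 34. Ifit3 and Ifit3b are known as close paralogs, as are members of the Gbp, IRG and Oas families, and Igtp and Irgm2 overlap in the annotation. The counts come from the gene counting of STAR, which leaves out reads that map to several places or to several genes, so the separate values of such members are uncertain, and the transcripts were not compared here. The letters were present on either strand in a promoter of 20 of the 36 members (55.6%) and in 3.99% of 27025 genes with a RefSeq promoter. The GAS letters TTCNNNGAA were present in 11 of the 36 members (30.6%) and in 9.55% of all genes, and overlapped an ISRE match in 2 of the 43 member promoters. Irf1, which encodes a transcription factor that itself binds ISRE-like sites, held a GAS match, in capitals here, and no ISRE match.
Irf1 promoter, chr11:53769912-53769944, plus strand: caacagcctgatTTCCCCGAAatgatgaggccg

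The libraries held 11440169 to 15074909 counts on genes. Levels are given as CPM, counts scaled to the size of the library with TMM factors from all 12 libraries together, and differences as the log2 fold change (log2FC) with its standard error (SE) from edgeR's quasi-likelihood test of each comparison, with p-values adjusted by the Benjamini-Hochberg method over all genes tested and called under 0.05. The label of the sorted cells was checked against markers. The summed level of 14 endothelial markers was 10920 to 16220 CPM in the WT bright and 15970 to 18610 CPM in the AS bright libraries, but 760.1 to 1401 CPM in the WT dim and 234 to 321 CPM in the AS dim libraries. The sum of 8 pan-leukocyte markers ran the other way, at 7987 to 12810 CPM in WT dim and 13250 to 14120 CPM in AS dim against 35.4 to 79.1 CPM in WT bright and 84.5 to 114 CPM in AS bright. No marker that a table listed was at 0 in every library of a group, while 6 of 11 T and NK cell markers were not listed in the bright tdT table. The markers thus go against an endothelial label for much of the RNA of the dim libraries, which are called dim tdT GEC here only because the labels do so. In such bulk samples, fewer cells of a type and less RNA per cell cannot be told apart.

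**Figure D1:**
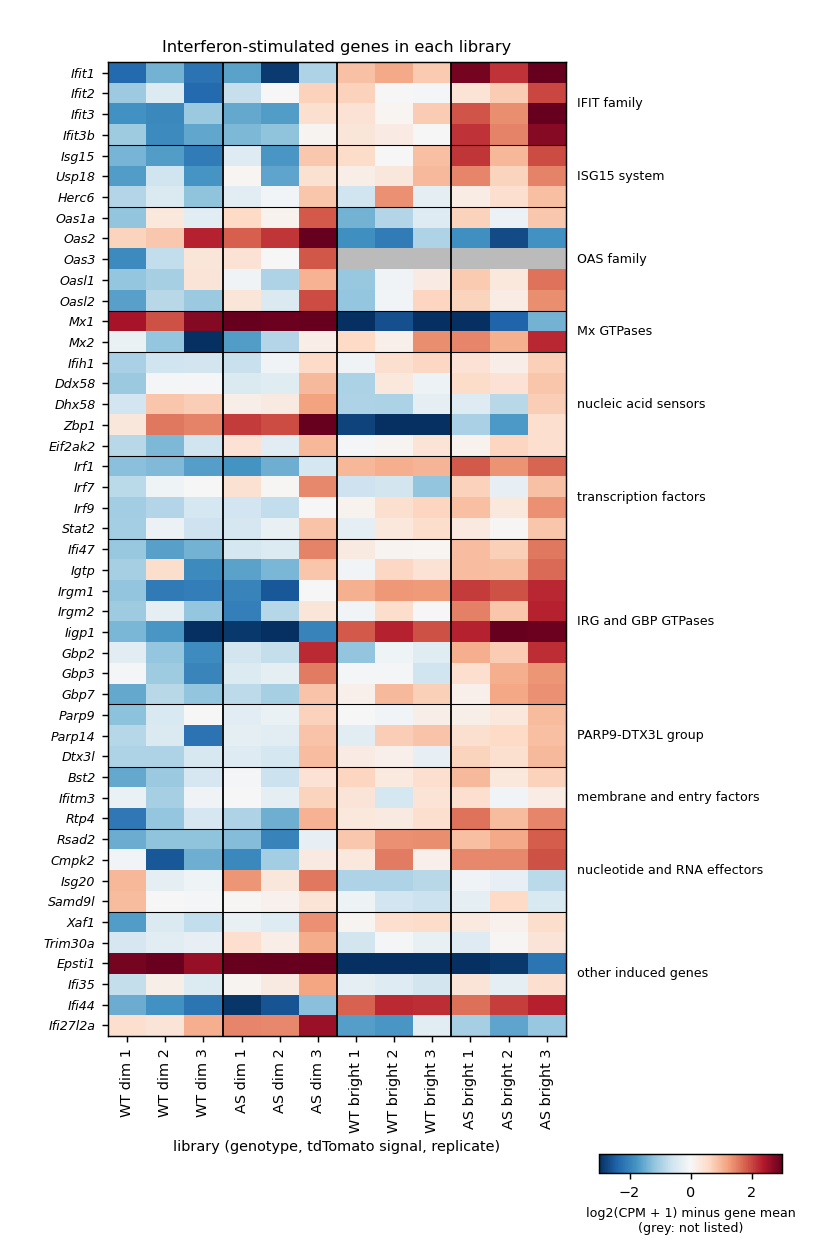
Level of each of the 47 interferon-stimulated genes (rows, by role) in each of the 12 libraries (columns), as log2(CPM + 1) minus the gene's mean, with colours saturating at -3 and 3 and Oas3 grey where it was not listed. Most members are low in the WT dim libraries and high in the AS bright libraries, Mx1, Oas2, Zbp1, Epsti1 and Ifi27l2a run the other way between the subpopulations, and the AS dim replicate 3 column is the highest of its group in 47 of 47 rows.

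On the authors' RPKM scale, counts are divided by a deposited gene length. For Irf7 this was 17361 bases, longer than the annotated gene at chr7:141262706-141266481, so places between members on this scale are uncertain. On it, Ifitm3, whose product blocks virus entry from endosomes, was the highest member in every group. It reached 1056 ± 305 RPKM (SD, n = 3) in WT dim, 1679 ± 589 in AS dim, 1672 ± 569 in WT bright and 1730.1 ± 349 in AS bright. The second place was held by Iigp1, an immunity-related GTPase, in the bright libraries, at 216 ± 34.7 RPKM in WT and 355 ± 85.3 RPKM in AS. In the dim libraries it was held by Epsti1, at 28.6 ± 3.54 RPKM in WT and 54.3 ± 10.4 RPKM in AS. This place rests on the lengths: in mean CPM, Irf9 (285 in WT and 375 in AS) and Irf1 (219 and 260) were above Epsti1 (129 and 228). The deposited length of Irf9, 13774 bases, is also longer than the annotated gene at chr14:55603571-55610030. Epsti1 was at 0.0904 ± 0.0170 RPKM, the last place, in WT bright. Below the first places the order was loose: the replicates of neighbouring members overlapped in 44 of 46 neighbouring pairs in WT dim, 45 of 46 in AS dim, 40 of 45 in WT bright and 41 of 45 in AS bright.

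The first question was whether the members differ between the subpopulations of the same mice. In WT mice, 22 of the 46 members tested were higher and 5 lower in bright than in dim GEC, against 13.8% higher and 11.5% lower of all 14247 genes tested. In AS mice, 17 were higher and 6 lower, against 28.6% and 26.5% of 14052 genes, so that in AS the members stood above the share of all genes for higher and below it for lower calls. The median log2FC of the members was 1.19 in WT (all genes -0.04) and 0.52 in AS (all genes 0.02). Called higher in both genotypes were 14 members, Ifit1, Ifit3, Ifit3b, Isg15, Usp18, Mx2, Irf1, Irf9, Irgm1, Iigp1, Rtp4, Rsad2, Cmpk2 and Ifi44, where 12.9% of the 13560 genes tested in both fell in this class. Called lower in both were 5, Oas2, Mx1, Zbp1, Epsti1 and Ifi27l2a, beside 10.5% of all genes. Of the 14, 10 had a RefSeq promoter and 6 of these (60.0%) the ISRE match shown above, near the 55.6% over all members with a promoter. A further 8 (Ifih1, Eif2ak2, Ifi47, Gbp7, Parp14, Dtx3l, Bst2 and Xaf1) were called higher in WT and not in AS, where 1.39% of all genes were. In AS and not in WT, 3 (Ifit2, Igtp and Irgm2) were called higher and 1 (Isg20) lower, beside 16.3% and 15.8% of all genes, and 15 members passed in neither genotype, beside 41.7%. The difference between genotypes is tested further down.

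The IFIT genes encode proteins that bind foreign RNA and stop its translation. Ifit1 was at 2.51, 5.60 and 2.81 CPM in WT dim and 31.2, 37.9 and 29.4 CPM in WT bright, and at 4.74, 1.41 and 8.30 CPM in AS dim and 128, 78.1 and 198 CPM in AS bright GEC. Ifit3 was at 9.40, 8.53 and 15.8 CPM in WT dim and 48.0, 37.1 and 60.4 CPM in WT bright, and at 11.6, 10.5 and 49.8 CPM in AS dim and 134, 95.1 and 297 CPM in AS bright GEC. Ifit3b was at 1.88, 0.603 and 1.02 CPM in WT dim and 6.68, 6.15 and 5.05 CPM in WT bright, and at 1.34, 1.58 and 5.35 CPM in AS dim and 25.7, 15.7 and 38.9 CPM in AS bright GEC. Every bright library lay above every dim library of its genotype for Ifit1 and Ifit3b, and also for Ifit3, of which AS dim replicate 3 lay above 2 of the 3 WT bright libraries. The log2FC of Ifit1 was 3.26 ± 0.43 (SE, adjusted p = 0.000651) in WT and 4.81 ± 0.50 (SE, adjusted p = 2.36e-05) in AS, that is 9.56-fold and 28.1-fold. It was 2.19 and 2.90 for Ifit3 and 2.45 and 3.31 for Ifit3b. Ifit2 had 1.52 (adjusted p = 0.0640) in WT and 1.18 (adjusted p = 0.0486) in AS.

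Of the ISG15 system, Isg15 is a ubiquitin-like tag, Usp18 removes the tag and dampens receptor signalling, and Herc6 is the ligase that attaches it in the mouse. Isg15 was at 11.2, 9.05 and 6.55 CPM in WT dim and 46.2, 30.8 and 59.8 CPM in WT bright, and at 23.8, 8.55 and 55.1 CPM in AS dim and 142, 63.0 and 124 CPM in AS bright GEC. Usp18 was at 9.58, 21.3 and 9.01 CPM in WT dim and 38.3, 42.0 and 65.2 CPM in WT bright, and at 34.1, 10.3 and 45.4 CPM in AS dim and 93.0, 53.3 and 94.5 CPM in AS bright GEC. For both genes AS dim replicate 3 lay above 2 of the 3 WT bright libraries, while the other dim libraries lay below every bright library of either genotype. The log2FC of Isg15 was 2.45 in WT and 1.93 in AS, and that of Usp18 1.95 and 1.44, all called. Herc6 had 1.51 in WT and 0.39 in AS and was not called.

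The OAS family is named for oligoadenylate synthetases, which sense double-stranded RNA and make the activator of RNase L. Of its 4 members tested between subpopulations, Oas2 alone was called, lower in bright GEC, where the IFIT calls were higher. Oas2 was at 26.8, 29.7 and 84.7 CPM in WT dim and 3.88, 3.04 and 8.15 CPM in WT bright, and at 59.6, 75.6 and 191 CPM in AS dim and 3.90, 1.72 and 3.93 CPM in AS bright GEC. Oasl2 was at 11.1, 20.0 and 16.2 CPM in WT dim and 15.8, 34.2 and 57.0 CPM in WT bright, and at 47.4, 26.8 and 145 CPM in AS dim and 58.5, 42.4 and 96.7 CPM in AS bright GEC. The Oas2 values of the bright libraries were all below the dim ones, while those of Oasl2 overlapped. The log2FC of Oas2 was -3.14 ± 0.60 (SE, adjusted p = 0.00479) in WT and -5.08 ± 0.52 (SE, adjusted p = 2.13e-05) in AS. Oas1a, Oasl1 and Oasl2 had log2FC between -0.52 and 1.26 in the 2 genotypes, and none was called. Oas3 was at 2.596, 7.15 and 16.3 CPM in the WT dim and 17.3, 12.3 and 48.0 CPM in the AS dim libraries and was not tested between subpopulations.

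The Mx GTPases, dynamin-like proteins that act on viral nucleocapsids, split. Mx1 was at 126, 85.0 and 155 CPM in WT dim and 0.827, 2.70 and 0.453 CPM in WT bright, and at 223, 176 and 425 CPM in AS dim and 1.06, 3.39 and 7.65 CPM in AS bright GEC. Mx2 was at 47.6, 23.8 and 4.93 CPM in WT dim and 83.4, 61.5 and 147 CPM in WT bright, and at 16.5, 29.2 and 62.6 CPM in AS dim and 154, 117 and 268 CPM in AS bright GEC. Mx1 was far lower in every bright than in every dim library, whereas Mx2, on the same chromosome, was higher in the bright ones. The log2FC was -6.45 ± 0.55 (SE, adjusted p = 5.60e-05) in WT and -6.07 ± 0.56 (SE, adjusted p = 8.63e-06) in AS for Mx1, and 2.04 ± 0.65 (SE, adjusted p = 0.0467) in WT and 2.34 ± 0.46 (SE, adjusted p = 0.00161) in AS for Mx2. In AS dim replicate 3 Mx2 reached the lowest WT bright value, and in both genotypes all bright libraries were above all dim libraries of the same genotype. Gencode annotates Mx2 as a polymorphic pseudogene, and whether either Mx gene makes a working protein in these mice was not tested.

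Among the nucleic acid sensors, Zbp1, which senses Z-form nucleic acid and can start necroptosis, was a gene of the dim libraries. Zbp1 was at 20.9, 51.0 and 47.3 CPM in WT dim and 1.53, 1.18 and 0.712 CPM in WT bright, and at 72.5, 65.6 and 242 CPM in AS dim and 7.86, 4.22 and 23.5 CPM in AS bright GEC. Its log2FC was -5.03 ± 0.57 (SE, adjusted p = 0.000267) in WT and -3.41 ± 0.66 (SE, adjusted p = 0.00151) in AS. Ifih1, the RNA sensor MDA5, and Eif2ak2, the RNA-activated kinase PKR, were higher in WT bright than in WT dim. Ifih1 was at 24.8, 32.7 and 34.1 CPM in WT dim and 46.3, 70.2 and 77.6 CPM in WT bright, and at 31.0, 46.3 and 74.7 CPM in AS dim and 68, 57.3 and 82.4 CPM in AS bright GEC. Eif2ak2 was at 12.1, 8.18 and 14.5 CPM in WT dim and 21.4, 23.6 and 30.2 CPM in WT bright, and at 30.4, 17.7 and 45.5 CPM in AS dim and 23.9, 35.3 and 31.9 CPM in AS bright GEC. For both genes the AS dim libraries overlapped the AS bright ones, and the log2FC of Ifih1 was 1.17 in WT (called) and 0.47 in AS, and that of Eif2ak2 1.20 (called) and -0.01. Ddx58 (RIG-I) and Dhx58 (LGP2) were called in neither genotype.

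Of the transcription factors, Irf9 and Stat2 are parts of the complex that binds the ISRE, Irf7 drives interferon genes, and Irf1 responds mainly to type II interferon. Irf1 was at 241, 232 and 184 CPM in WT dim and 1154, 1229 and 1169 CPM in WT bright, and at 168, 209 and 402 CPM in AS dim and 2072, 1473 and 1948 CPM in AS bright GEC. Irf9 was at 240.3, 270.3 and 344 CPM in WT dim and 533, 690.4 and 776 CPM in WT bright, and at 335, 298 and 492 CPM in AS dim and 929, 624 and 1279 CPM in AS bright GEC. Irf1 in every bright library was above Irf1 in every dim library, whatever the genotype. The log2FC was 2.53 ± 0.22 (SE, adjusted p = 6.61e-05) in WT and 2.84 ± 0.33 (SE, adjusted p = 4.46e-05) in AS for Irf1, and 1.31 and 1.35 for Irf9. Stat2 had 0.87 in WT and 0.28 in AS and Irf7 -0.41 and -0.23, neither called.

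The immunity-related GTPases (Ifi47, Igtp, Irgm1, Irgm2 and Iigp1) and guanylate-binding proteins (Gbp2, Gbp3 and Gbp7) act on membranes of intracellular compartments. Iigp1 was at 118, 91.5 and 36.7 CPM in WT dim and 1119.8, 1536 and 1159 CPM in WT bright, and at 40.6, 32.3 and 76.6 CPM in AS dim and 1538, 2468 and 2406 CPM in AS bright GEC. Irgm1 was at 43.7, 22.4 and 23.0 CPM in WT dim and 213, 249 and 246 CPM in WT bright, and at 24.3, 16.3 and 100.1 CPM in AS dim and 434, 379 and 482 CPM in AS bright GEC. The bright libraries were far above the dim ones for both genes, and the log2FC was 4.05 ± 0.42 (SE, adjusted p = 0.000176) in WT and 5.45 ± 0.38 (SE, adjusted p = 1.09e-06) in AS for Iigp1, 16.6-fold and 43.6-fold. It was 3.09 and 3.23 for Irgm1. Gbp7 was at 11.0, 18.7 and 14.3 CPM in WT dim and 37.4, 66.9 and 55.7 CPM in WT bright, and at 19.1, 16.3 and 62.1 CPM in AS dim and 37.5, 76.3 and 89.7 CPM in AS bright GEC. Irgm2 was at 13.2, 23.1 and 12.3 CPM in WT dim and 26.9, 41.7 and 28.9 CPM in WT bright, and at 6.16, 15.4 and 37.1 CPM in AS dim and 83.7, 51.6 and 146 CPM in AS bright GEC. Gbp7 was called in WT at 1.95 and not in AS at 1.09 (adjusted p = 0.0847), and Irgm2 in AS at 2.29 and not in WT at 1.09 (adjusted p = 0.0642). Ifi47 was called in WT at 1.66 and Igtp in AS at 1.55, and Gbp2 and Gbp3 in neither.

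Parp9, Parp14 and Dtx3l encode ADP-ribosyltransferases and the ubiquitin ligase that pairs with PARP9. Parp14 was at 64.2, 87.0 and 24.7 CPM in WT dim and 92.7, 197 and 214 CPM in WT bright, and at 97.1, 92.9 and 213 CPM in AS dim and 165, 178 and 222 CPM in AS bright GEC. Dtx3l was at 30.8, 30.8 and 42.4 CPM in WT dim and 70.7, 66.3 and 49.6 CPM in WT bright, and at 45.2, 41.1 and 114 CPM in AS dim and 95.1, 83.4 and 118 CPM in AS bright GEC. In WT the bright libraries lay above the dim ones, and in AS the ranges overlapped. Parp14 had 1.61 in WT (called) and 0.51 in AS, Dtx3l 0.93 (called) and 0.59, and Parp9 0.59 and 0.41. Parp9 and Dtx3l overlap on opposite strands, and the strand setting of the counting is not given in the sources used here, so their reads may not be separable.

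Of the membrane and entry factors, Bst2 (tetherin) holds budding virus at the cell surface and Rtp4 is a chaperone of receptors that interferon induces. Bst2 was at 7.61, 10.5 and 16.6 CPM in WT dim and 37.7, 29.2 and 34.0 CPM in WT bright, and at 23.0, 14.8 and 32.7 CPM in AS dim and 47.4, 30.1 and 38.9 CPM in AS bright GEC. Rtp4 was at 7.16, 15.3 and 24.7 CPM in WT dim and 44.6, 42.9 and 50.6 CPM in WT bright, and at 18.2, 12.2 and 73.5 CPM in AS dim and 111, 69.1 and 98.8 CPM in AS bright GEC. Ifitm3 was at 869, 499 and 920.2 CPM in WT dim and 1292, 683 and 1316 CPM in WT bright, and at 983, 829 and 1582 CPM in AS dim and 1400.2, 932 and 1167 CPM in AS bright GEC. The libraries of both subpopulations overlapped for Ifitm3 in each genotype. The log2FC of Bst2 was 1.62 in WT (called) and 0.74 in AS (adjusted p = 0.0570), and that of Rtp4 1.63 and 1.45, both called. Ifitm3, the highest member in RPKM, was called in neither, at 0.62 and 0.07.

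Rsad2 (viperin) makes a chain-terminating nucleotide, and Cmpk2, its neighbour on chromosome 12, is a nucleotide kinase of mitochondria. Rsad2 was at 172, 209 and 207 CPM in WT dim and 847, 1257 and 1265 CPM in WT bright, and at 195, 120.0 and 404 CPM in AS dim and 905, 1067 and 1701 CPM in AS bright GEC. Cmpk2 was at 22.6, 3.27 and 8.08 CPM in WT dim and 30.2, 73.1 and 27.0 CPM in WT bright, and at 5.59, 11.1 and 29.4 CPM in AS dim and 66.8, 67.0 and 93.5 CPM in AS bright GEC. Isg20 was at 8.95, 3.10 and 3.57 CPM in WT dim and 1.65, 1.66 and 1.81 CPM in WT bright, and at 11.5, 5.31 and 14.1 CPM in AS dim and 3.68, 3.26 and 1.86 CPM in AS bright GEC. Rsad2 was high throughout the bright libraries, at 847 CPM or more, and for Isg20, an RNA exonuclease, every dim library lay above every bright library of its genotype. The log2FC was 2.61 ± 0.26 (SE, adjusted p = 0.000125) in WT and 2.37 ± 0.41 (SE, adjusted p = 0.000804) in AS for Rsad2. It was 2.05 and 2.33 for Cmpk2, both called, and -1.50 (adjusted p = 0.0925) and -1.78 (adjusted p = 0.00621) for Isg20. Samd9l was called in neither genotype.

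Among the remaining induced genes the widest contrast was between Epsti1 and Ifi44, 2 genes without an ISRE match in their RefSeq promoter. Epsti1 was at 133, 141 and 112 CPM in WT dim and 0.445, 0.346 and 0.324 CPM in WT bright, and at 228, 186 and 271 CPM in AS dim and 1.20, 1.47 and 3.001 CPM in AS bright GEC. Ifi44 was at 8.95, 6.98 and 5.10 CPM in WT dim and 95.3, 131 and 129 CPM in WT bright, and at 2.69, 3.65 and 10.7 CPM in AS dim and 87.7, 117 and 141 CPM in AS bright GEC. Epsti1, with 5 to 7 counts in a WT bright library, was 316-fold lower in WT bright than in WT dim GEC, a log2FC of -8.31 ± 0.37 (SE, adjusted p = 9.74e-07) in WT and -6.90 ± 0.32 (SE, adjusted p = 8.62e-08) in AS. Ifi44 stood 18.1-fold and 20.7-fold higher in bright GEC. Ifi27l2a was at 5.46, 4.91 and 8.67 CPM in WT dim and 0.445, 0.346 and 2.59 CPM in WT bright, and at 11.5, 11.3 and 26.2 CPM in AS dim and 1.27, 0.511 and 1.07 CPM in AS bright GEC. Ifi27l2a was lower in bright GEC at -2.39 in WT and -4.08 in AS. Xaf1, which promotes apoptosis, was called higher in WT at 1.44 and had -0.15 in AS, and Trim30a and Ifi35 were called in neither.

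**Figure D2:**
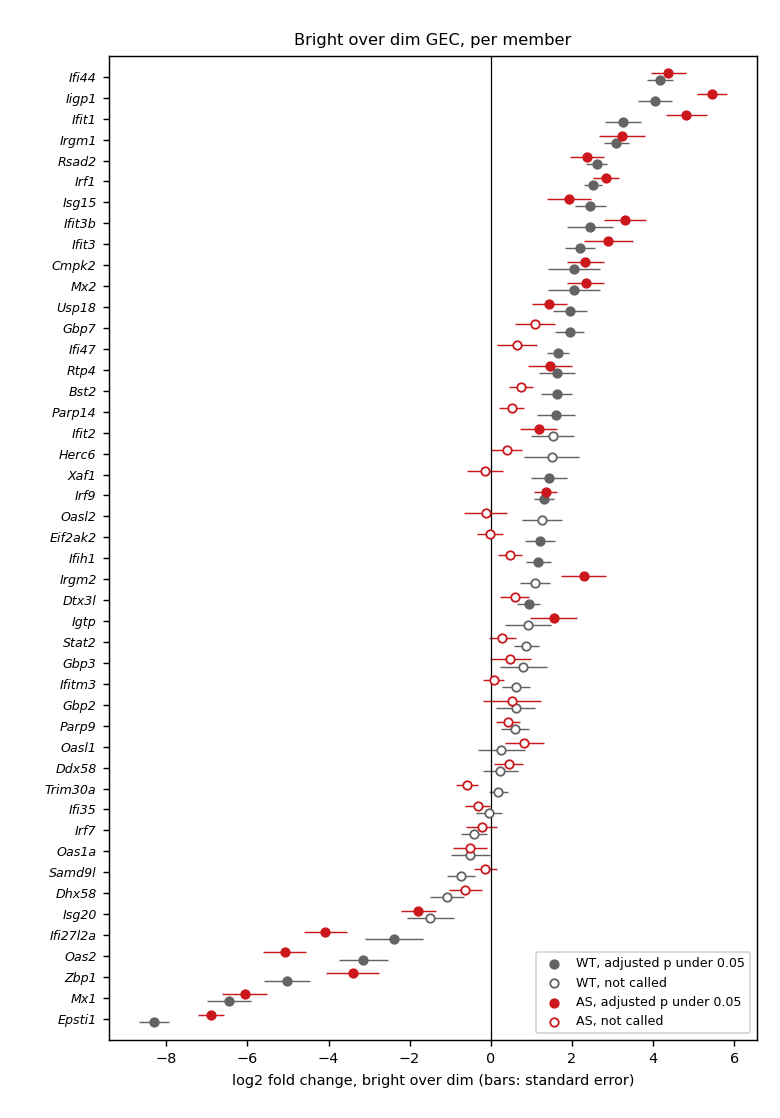
Log2 fold change of bright over dim GEC with its standard error (x axis) for the 46 members listed in both tables (y axis, ordered by the WT value), in WT (grey) and AS (red), 3 libraries against 3 each, filled where the adjusted p was under 0.05. The members run from Epsti1, Mx1, Zbp1, Oas2 and Ifi27l2a on the left, called lower in both genotypes, to Ifi44, Iigp1 and Ifit1 on the right, called higher in both.

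Markers of other cells moved with this comparison. The pan-leukocyte markers were called lower in bright GEC in 8 of 8 cases in each genotype, with a median log2FC of -7.53 in WT and -7.61 in AS, and the endothelial markers higher in 13 of 14 cases in WT and 14 of 14 in AS. Mesangial and mural markers were called higher in bright GEC in 3 of 7 cases in WT and 7 of 7 in AS, and podocyte markers lower in 4 and higher in 1 of 6 in WT but lower in 1 and higher in 4 of 6 in AS. The part of these cells in the differences of the members was not tested. AS dim replicate 3 weighed on the AS comparison, in which leaving it out gave 29 members called higher and 6 lower in place of 17 and 6, at a median of 1.11, while the share of all genes called was 24.5% higher and 23.7% lower. With the mouse as a replicate block, 25 members were higher and 5 lower in WT, against 16.1% and 15.1% of all genes, and 24 were higher and 8 lower in AS, against 28.5% and 26.7% of all genes. In these fits Dtx3l and Cmpk2 were no longer called in WT (adjusted p = 0.0516 and 0.0535), Ifit2, Oasl2, Stat2, Irgm2 and Ifitm3 were called in addition in WT, and Oasl1, Dhx58, Ifi47, Gbp2, Gbp7, Parp14, Dtx3l, Bst2 and Trim30a in AS.

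The second question was how AS and WT differ within the bright GEC. Of the 46 members tested, 42 had a positive log2FC of AS over WT, and their median was 0.71, against -0.03 over all 14396 genes. After adjustment 1 member was called higher, Ifit1, and none lower, where 0.188% of all genes were called higher and 0.264% were lower in AS. At an unadjusted p under 0.05, 24 members were higher and 0 lower, against 9.98% and 11.9% of all genes. In 22 members every AS library lay above every WT library and in 0 every AS library lay below, against 15.4% and 9.27% of all genes. DESeq2 called 13 members higher and 0 lower, Ifit1, Ifit3, Ifit3b, Isg15, Oas1a, Zbp1, Irf7, Ifi47, Irgm1, Irgm2, Gbp2, Gbp3 and Rtp4, where it called 2.99% of all genes higher. The likelihood ratio test of edgeR called 7 members higher and 0 lower, where it called 1.63% of all genes higher.

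Ifit1 was at 31.2, 37.9 and 29.4 CPM in the WT bright and 128, 78.1 and 198 CPM in the AS bright libraries, a log2FC of 1.97 ± 0.32 (SE, adjusted p = 0.0346) or 3.92-fold. The lowest AS library was above the highest WT library. Its relatives Ifit3b and Ifit3 were at 5.05 to 6.68 and 37.1 to 60.4 CPM in WT and at 15.7 to 38.9 and 95.1 to 297 CPM in AS, with log2FC values of 2.10 ± 0.38 (SE, adjusted p = 0.0501) and 1.79 ± 0.39 (SE, adjusted p = 0.0593), and neither was called. The IFIT family had the highest median of the 11 role groups, 1.88 over 4 members. It was followed by the Mx GTPases with 1.19 over 2 members and the OAS family with 1.03 over 4, and the lowest were the membrane and entry factors with 0.14 over 3 and the other induced genes with 0.07 over 6.

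Some abundant members of the bright GEC were also higher in each AS library, without passing the adjusted threshold. Irf1 was at 1154, 1229 and 1169 CPM in WT and 2072, 1473 and 1948 CPM in AS, a log2FC of 0.57 ± 0.21 (SE, adjusted p = 0.163). Iigp1 was at 1119.8, 1536 and 1159 CPM in WT and 1538, 2468 and 2406 CPM in AS, a log2FC of 0.69 ± 0.25 (SE, adjusted p = 0.154). For Irf1 the groups were apart, while for Iigp1 the AS and WT bright libraries came within a few CPM of each other. All 8 IRG and GBP genes had positive values, the highest Gbp2 with 1.97 ± 0.40 (SE, adjusted p = 0.0547). Of the other members with the highest level of their role group, Isg15 had 1.20, Oasl2 0.82, Mx2 0.82, Parp14 0.11 and Ifih1 0.04. Rsad2, among the highest members in RPKM in the bright libraries, had 0.06 ± 0.27 (SE, adjusted p = 0.915), Ifitm3 0.03 ± 0.29 (SE, adjusted p = 0.97) and Ifi44 -0.10 ± 0.23 (SE, adjusted p = 0.832).

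The members with the highest AS over WT values in bright GEC included genes of the dim libraries. Zbp1 was at 1.53, 1.18 and 0.712 CPM in WT bright and 7.86, 4.22 and 23.5 CPM in AS bright, log2FC 3.29 ± 0.73 (SE, adjusted p = 0.0606), and Epsti1 at 0.445, 0.346 and 0.324 and 1.20, 1.47 and 3.001 CPM, log2FC 2.25 ± 0.61 (SE, adjusted p = 0.0858). Oas2, another gene of the dim libraries, had -0.74 ± 0.52 (SE, adjusted p = 0.444). Of the other members called lower in bright GEC of both genotypes, Mx1 had 1.56 ± 0.77 (SE, adjusted p = 0.264), with overlapping groups. Ifi27l2a had -0.33 ± 0.77 (SE, adjusted p = 0.839), also with overlapping groups. The summed pan-leukocyte markers were also apart, at 35.4 to 79.1 CPM in WT bright and 84.5 to 114 CPM in AS bright, without a marker being called. So were the podocyte markers, at a summed 969.9 to 1181 CPM in WT bright and 1308 to 1486 CPM in AS bright, with 0 of 6 called. The log2FC of the proximal tubule markers was negative in 12 of 12 cases with 0 called, at a summed 479.6 to 3047 CPM in WT and 56.9 to 558 CPM in AS, which overlap. With the leukocyte markers as a covariate the members' median was 0.91 with 6 called higher (0.722% of all genes), and with the proximal tubule markers as a covariate it was 0.30 with 0 called, as were 0 of all genes. The count of 1 rested on the libraries: without WT replicate 3, AS replicate 1 or AS replicate 3 it was 0, as it was over all genes, without WT replicate 1 or WT replicate 2 it was 2 (0.348% and 0.709% of all genes called higher), and without AS replicate 2 it was 10, where 0.598% of all genes were called higher.

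**Figure D3:**
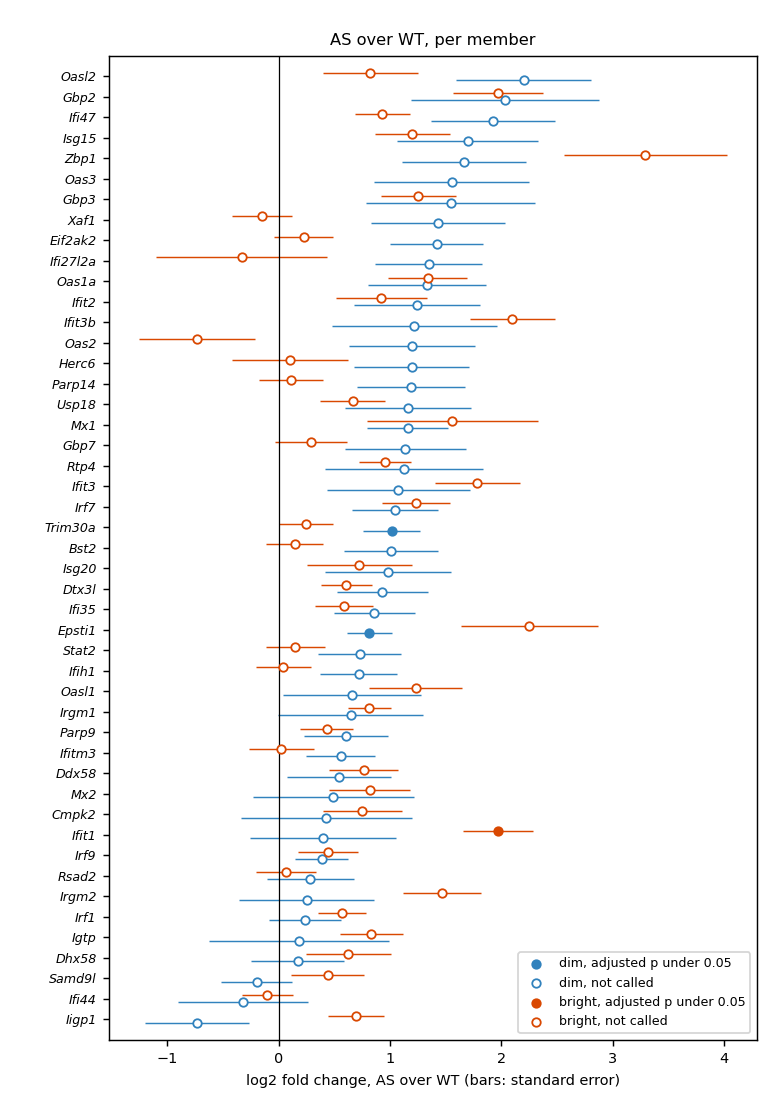
Log2 fold change of AS over WT with its standard error (x axis) for each member (y axis, ordered by the value in dim GEC), in dim (blue) and bright (orange) GEC, 3 AS against 3 WT libraries each, filled where the adjusted p was under 0.05. Nearly all values lie right of 0, 44 of 47 in dim and 42 of 46 in bright GEC, and Ifit1 in bright and Trim30a and Epsti1 in dim GEC are the filled points.

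The same comparison was made within the dim GEC. Of 47 members, 44 had a positive log2FC of AS over WT, with a median of 1.01 against -0.02 over all 14637 genes. After adjustment 2 were called higher, Trim30a and Epsti1, and none lower, where 2.21% of all genes were called higher and 6.42% were lower in AS. At an unadjusted p under 0.05, 17 members were higher and 0 lower, against 10.3% and 15.9% of all genes, and in 12 the AS libraries were all above and in 0 all below the WT libraries, against 15.3% and 15.9%. DESeq2 called 8 higher and 0 lower, Isg15, Oasl2, Mx1, Zbp1, Eif2ak2, Ifi47, Trim30a and Epsti1, where it called 4.52% of all genes higher.

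Trim30a, which encodes a TRIM protein that restrains Toll-like receptor signalling, was at 87.3, 97.6 and 104 CPM in the WT dim and 176, 142 and 269 CPM in the AS dim libraries, a log2FC of 1.01 ± 0.26 (SE, adjusted p = 0.0484) or 2.02-fold. Epsti1 was at 133, 141 and 112 CPM in WT and 228, 186 and 271 CPM in AS, a log2FC of 0.82 ± 0.20 (SE, adjusted p = 0.0470) or 1.76-fold. Both genes were higher in each AS than in each WT library. Oasl2 had the highest value, 2.20 ± 0.60 (SE, adjusted p = 0.0598), followed by Gbp2 with 2.03 ± 0.85 (SE, adjusted p = 0.171) and Ifi47 with 1.92 ± 0.56 (SE, adjusted p = 0.0685), and none of these was called. The OAS family had the highest median of the role groups, 1.34 over 5 members, followed by the ISG15 system with 1.19 over 3 and the IFIT family with 1.15 over 4. Without AS dim replicate 3 these medians were 0.67, 0.75 and 0.14, with the ISG15 system highest and the IFIT family at rank 9 of the 11 role groups. The 3 members with a negative value were Iigp1 with -0.73, Ifi44 with -0.32 and Samd9l with -0.20.

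Further members with high levels in dim GEC were spread more widely. Mx1 was at 126, 85.0 and 155 CPM in WT and 223, 176 and 425 CPM in AS, log2FC 1.16 ± 0.36 (SE, adjusted p = 0.0839), apart but with an AS replicate 3 at 425 CPM. Irf9 was at 240.3, 270.3 and 344 CPM in WT and 335, 298 and 492 CPM in AS, log2FC 0.39 ± 0.24 (SE, adjusted p = 0.350), with the groups overlapping. Dhx58 was at 43.4, 118 and 109.9 CPM in WT and 74.2, 79.9 and 154 CPM in AS, log2FC 0.17 ± 0.42 (SE, adjusted p = 0.835), again overlapping. Of the other members with the highest level of their role group, Oas2 had 1.20, Parp14 1.19, Usp18 1.16, Ifit3 1.08, Ifitm3 0.56 and Rsad2 0.28, none called. For Mx1, Irf9 and Dhx58 the AS replicate 3 was the highest of the 6 libraries.

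This mouse stood out in the whole group of members. AS dim replicate 3 was the highest of the 3 AS dim libraries in 47 of 47 members, against 33.8% of all genes tested, and it lay above every WT dim library in 45 of 47, against 28.5% of all genes. AS dim replicates 1 and 2 lay above every WT dim library in 21 and 15 of 47 members, against 28.8% and 26.7% of all genes. The summed level of the members was 2864, 2806 and 3127 CPM in the WT dim and 3667, 3256 and 7411 CPM in the AS dim libraries. In the bright GEC of the same mouse, AS bright replicate 3 was the highest of the 3 AS bright libraries in 36 of 46 members, against 35.5% of all genes, and lay above every WT bright library in 40 of 46, against 32.1%. There the other AS libraries were less far off, above every WT bright library in 29 and 28 of 46 members, against 32.5% and 27.3% of all genes, and the summed level of the members was 6673, 7561 and 7984 CPM in WT and 10010, 9254 and 13064 CPM in AS. In the WT groups no replicate was the highest in more than 18 of 47 members in dim and 21 of 46 in bright GEC.

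Without AS dim replicate 3, the median over the members of AS over WT in dim GEC was 0.33 with 31 of 47 positive and 0 called, in place of 1.01 with 44 positive and 2 called. Oasl2 then had 1.23, Trim30a 0.72 and Epsti1 0.68. Without AS bright replicate 3, the median in bright GEC was 0.51 with 37 of 46 positive and 0 called, in place of 0.71 with 42 positive and 1 called, and Ifit1 had 1.58 (adjusted p = 0.142). In both of these fits 0.0% of all genes were called higher. Without AS dim replicate 1, 0 members and 0.0% of all genes were called higher in dim GEC. Leaving out WT dim replicate 1, 2 or 3 left 0 members called, where 0.738%, 0.792% and 2.94% of all genes were higher, and leaving out AS dim replicate 2 left 1 member, where 0.318% were. The members' medians in these fits lay between 0.90 and 1.21.

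**Figure D4:**
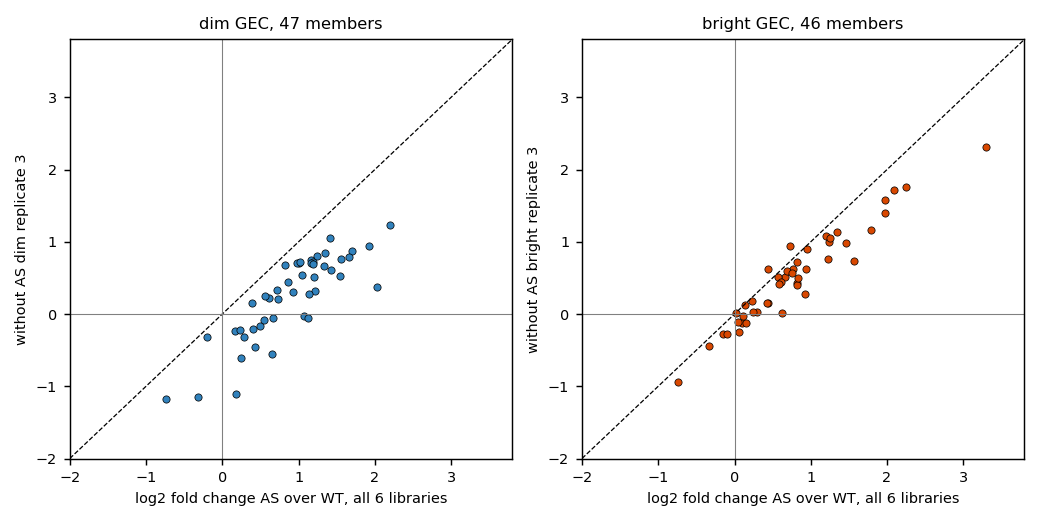
Log2 fold change of AS over WT for each member with all 6 libraries (x axis) and without replicate 3 of the AS group (y axis), in dim GEC (left, 47 members) and bright GEC (right, 46 members), with the dashed line marking equal values. The dim points lie below the line by more than the bright points, with the median going from 1.01 to 0.33 in dim and from 0.71 to 0.51 in bright GEC.

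Cell-type markers moved with the genotype in dim GEC as well. The macrophage and monocyte markers were positive in 12 of 12 and called higher in 5 of 12 cases in AS, at a summed 3981, 3042 and 5365 CPM in the WT and 7680, 7714 and 10290 CPM in the AS libraries, so that AS dim replicate 3 also had the highest sum of these. The endothelial markers were called lower in 9 of 13 cases in AS. Podocyte markers were called lower in 3 and higher in 1 of 6 cases, at a summed 634.8 to 1245 CPM in WT and 537.8 to 562 CPM in AS, and mesangial and mural markers were negative in 6 of 6 cases with 0 called. The proximal tubule markers were called lower in 7 of 12 cases, at a summed 7414, 1693 and 1624 CPM in WT and 39.3, 441.5 and 15.4 CPM in AS. With the leukocyte markers as a covariate the members' median was 0.80 with 0 called, where 0.0137% of all genes were called higher, and with the proximal tubule markers, whose sums did not overlap between genotypes, it was -0.49 with 32 of 47 negative and 0 called, as were 0 of all genes. The part of these cells in the members' differences was not tested otherwise.

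**Figure D5:**
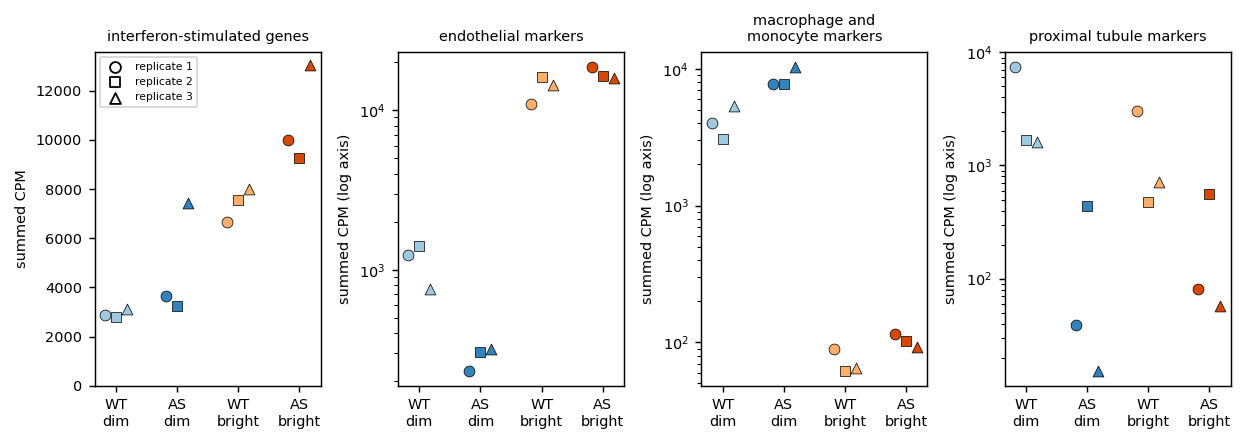
Summed CPM (y axis, linear from 0 in the first panel and logarithmic in the others) of the interferon-stimulated genes and of the endothelial, macrophage and monocyte, and proximal tubule markers in each library, by group (x axis) and replicate (circle 1, square 2, triangle 3). The sum of the interferon-stimulated genes is 7411 CPM in AS dim replicate 3 against 2806 to 3667 CPM in the other 5 dim libraries, and the marker sums differ between dim and bright and between genotypes.

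Whether AS over WT differs between bright and dim GEC was tested as the interaction in one fit of all 12 libraries. No member of 46 was called by edgeR's quasi-likelihood test, against 3.82% of all genes, and 0 by DESeq2 or the likelihood ratio test. At an unadjusted p under 0.05, 3 members were higher and 3 lower in bright, no more than the 11.7% and 6.87% of all genes. The former were Ifit1 with 1.63 ± 0.71 (SE, adjusted p = 0.238), Iigp1 with 1.47 ± 0.55 (SE, adjusted p = 0.167) and Epsti1 with 1.48 ± 0.56 (SE, adjusted p = 0.167), and the latter Oas2 with -1.88 ± 0.85 (SE, adjusted p = 0.257), Xaf1 with -1.53 ± 0.67 (SE, adjusted p = 0.239) and Eif2ak2 with -1.15 ± 0.49 (SE, adjusted p = 0.228). The members' median was -0.12 and that of all genes 0.14, which became -0.28 and -0.03 with library sizes alone. The 8 members called between subpopulations in WT alone and the 4 called in AS alone were therefore not shown to differ between genotypes. Without AS dim replicate 3 the members' median of the interaction was 0.58, with 0 called, and that of all genes 0.15.

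Other genes of the pathway were counted from lists of their own. Of 11 interferon ligands, 2 were listed in the dim table, Ifng with 25 to 65 and Ifnk with 4 to 41 counts in a dim library, and Ifnk alone, with 0 to 8 counts, in the bright table. Among the receptors and JAK-STAT genes, 0 of 10 tested in bright and 0 of 11 in dim GEC were called between genotypes by edgeR's quasi-likelihood test, with 10 positive in each. Between subpopulations, 4 of 11 were called lower in WT bright than in WT dim GEC and 7 of 11 in AS, and 0 were higher, beside 11.5% lower and 13.8% higher of all genes in WT and 26.5% and 28.6% in AS. Ifngr1, a subunit of the type II receptor, had -2.98 in WT and -3.30 in AS, and Ifnlr1, of the type III receptor, -2.17 and -4.00.

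Of 14 sensing and IRF genes tested between subpopulations, 1 was higher and 4 lower in WT bright GEC and 3 were higher and 6 lower in AS bright GEC, beside the same shares of all genes, so that the higher calls were no more frequent than over all genes. Tlr3, an endosomal receptor of double-stranded RNA, was higher at 2.63 and 3.86, whereas Tlr7, a receptor of single-stranded RNA, had -4.46 and -5.88, the kinase gene Ikbke -5.27 and -3.99 and Irf5 -8.39 and -7.57. Of 10 negative regulators, 4 were higher and 3 lower in bright GEC of each genotype, which in AS is close to the shares of all genes. Socs1 and Socs3, which block JAK kinases, were higher at 3.20 and 3.08 in WT and 4.26 and 3.25 in AS, and Ptpn6, a phosphatase of blood cells, was lower at -6.77 and -7.26. By edgeR's quasi-likelihood test 0 of the sensing or regulator genes were called between AS and WT within a subpopulation.

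A list of 60 further interferon-induced genes was counted in the same way. In WT 15 of 50 tested were higher and 7 lower in bright than in dim GEC, against 13.8% and 11.5% of all genes, and in AS 16 of 52 were higher and 15 lower, near the 28.6% and 26.5% of all genes. The called genes with the widest differences were lower in bright GEC, the chemokine gene Ccl5 (-7.83 in WT and -9.35 in AS), Ms4a4c (-7.86 and -8.62), Ifi205 (-6.71 and -4.96), Slfn8 (-4.42 and -6.36) and Ifitm1 (-5.24 and -5.04). Between genotypes, 5 of 55 were called higher and 0 lower in AS dim GEC, beside 2.21% higher and 6.42% lower of all genes. The called genes were led by Lgals3bp with 2.12, Phf11b with 1.87, Ms4a4c with 1.69 and Ifi204 with 1.57. In bright GEC 0 of 51 were called by edgeR's quasi-likelihood test, with 38 of 51 positive and a median of 0.57. In the interaction 1 gene of this list and 1 of the sensing genes was called, Gbp8 with -2.82 and Irf8 with 1.63.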

How the data were processed

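RNA was measured in 12 libraries, 3 for each of the WT dim, WT bright, AS dim and AS bright groups. Per the labels and the study's methods, the authors checked reads with FastQC 0.11.5, trimmed them with cutadapt and Trimmomatic, aligned them with STAR 2.6.0c to GRCm38.p5 and counted reads per gene of the Gencode M16 annotation with the gene counting of STAR. The deposited tables, 1 for dim and 1 for bright GEC, hold whole-number counts per gene, which were used for every test, and RPKM values that the authors computed from counts and gene length, which were used only for levels between genes. The other deposited columns hold the authors' own comparison as log2 fold changes and mean log2 CPM, a score (the likelihood ratio statistic) and a p-value with its FDR, and were not used. The strand setting of the counting is not given in the sources used here. Spike-in rows (0.0286 to 0.282% of counts) were left out.

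Libraries held 11440169 to 13923267 counts on genes in the dim and 13674045 to 15074909 in the bright groups, and no replicate pair of 12 looked like 1 library deposited again, with chi-square values of 29.5 to 104 per degree of freedom. Counts were fitted with edgeR 4.0.16 (quasi-likelihood test, TMM scaling, filterByExpr) in R 4.3.3, within the 2 groups compared, or over all 12 libraries for the interaction, without a block, with p-values adjusted by the Benjamini-Hochberg method over the genes of the fit and a threshold of 0.05. Comparisons between subpopulations used the 15768 genes of both tables. Same-numbered dim and bright libraries come from the same mouse by their labels, and their deviations from the group means correlated at 0.102 to 0.274 in WT and 0.0796 to 0.385 in AS. Between different mice of a genotype the correlations were -0.2105 to 0.0133 in WT and -0.2863 to 0.1887 in AS, where the ranges overlap. Alternatives were other scalings, no filter, the likelihood ratio test, DESeq2 1.42.0, the replicate block, marker covariates, 1 fit of all libraries, leaving out each library and, added after seeing the data, edgeR's version 3 fit. The fits were also run on simulated counts, drawn with a spread shared by genes of similar level and without an outlying library. No result given here rests on them.

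The members, the pathway and marker lists and the rules were chosen with earlier results of these data known. Levels per library are given, for each role group and comparison, for the up to 3 called members with the largest log2FC in size or, where none was called, for the member with the highest mean CPM, and from each other list at most 4 called genes per comparison, the largest by size of log2FC, are named, each with its values in both genotypes. Ifit2, Gbp2 and other members named with a value alone were added after their values were seen. Outside this rule, levels per library are also given for Oas3 in dim GEC and, between genotypes in bright GEC, for Zbp1 and Epsti1. Those of Oasl2 and Ifitm3, the highest of their role groups between genotypes in bright GEC, are printed with the subpopulations.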

Additional observations from a re-analysis of the deposited data

How the results depend on the processing

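Of the member results under the alternatives, 660 of 736 of AS over WT in bright GEC, 652 of 751 in dim GEC, 520 of 598 of bright over dim in WT, 529 of 598 in AS and 810 of 874 of the interaction kept their direction and their side of the threshold. Calls were lost in 6, 25, 57, 27 and 0 and gained in 37, 13, 15, 24 and 1 of them, in the same order. The sign changed in 33, 61, 6, 18 and 63 further results, all of them called neither before nor after. Most of these in dim GEC came with the proximal tubule marker covariate (31, median -0.49) or without AS dim replicate 3 (13, median 0.33). The number of members called in AS over WT in bright GEC (1) was 2 with RLE scaling (0.194% of all genes called higher), 7 by the likelihood ratio test (1.63%), 13 by DESeq2 (2.99%), 6 with the leukocyte marker covariate (0.722%), 3 in 1 fit of all libraries (0.444%), and 0 with edgeR's version 3 fit, the proximal tubule marker covariate (0.0% each) or the replicate block (0.0486%). In dim GEC (2) it was 1 with RLE scaling (2.07%), 8 by DESeq2 (4.52%), 5 in 1 fit of all libraries (3.43%), 1 with the replicate block (0.43%), in which the mice share only a number, and 0 without the filter (1.21%), with the version 3 fit (0.888%) or with the leukocyte (0.0137%) or proximal tubule marker covariate (0.0%). The cause was not tested. With that block Ifit1 was not called in bright GEC, and in dim GEC Trim30a and Epsti1 were not called and the 1 was Oas2. Over 16 alternatives each, Ifit1 was called in 10, Trim30a in 3 and Epsti1 in 4. With the replicate block the subpopulations differed in 30 members in WT (27 without it) and 32 in AS (23 without it), where 31.2% and 55.2% of all genes did, and in the interaction in 0. Leaving out 1 library gave 0 to 10 members called in AS over WT in bright GEC (0.0% to 1.88% of all genes called in either direction), 0 to 1 in dim GEC (0.0% to 11.9%), 18 to 24 in bright over dim in WT (17.3% to 23.3%), 19 to 35 in AS (45.6% to 52.2%) and 0 to 1 in the interaction (1.66% to 5.81%), the 1 without WT dim replicate 3. With the smallest p of an exact permutation test of 3 against 3 libraries at 0.1, calls rest on the spread that edgeR shares across genes.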
